A study of Mus musculus with 13 samples.

Results

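Kinesins are microtubule motors, and the genes described here are all those on the array whose symbol starts with Kif and a digit, together with Kifc1, Kifc2 and Kifc3. The rule took 41 of the 21893 genes measured, a choice by symbol that uses no values, and 65 probes read them. Total RNA came from superior cervical and coeliac ganglia, which hold sympathetic neurons and their glia, of mice that were 2 weeks old. A group of 6 samples was homozygous for the TH-MYCN transgene (TH-MYCN+/+), and the other group of 7 samples was wild type, the littermates of the same age. In TH-MYCN mice a tyrosine hydroxylase promoter drives MYCN, so the transgene is aimed at cells that make catecholamines, and the animals serve as a model of neuroblastoma. Each sample was hybridised alone to a 1-colour Agilent array, and the labels do not say whether a sample is 1 animal or a pool of several. The p-values therefore rest on the scatter among these samples, part of which may be technical.

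A kinesin binds its cargo or a second microtubule through its tail and walks, or takes microtubule ends apart, with a motor domain that splits ATP. One set of family members builds and breaks the mitotic spindle and is transcribed mainly in dividing cells. Another set carries vesicles, mitochondria and cilium components, and in sympathetic neurons these motors supply the long axons to target organs. Accordingly the members were ordered into 13 genes of mitosis, 17 of transport, 10 of microtubule ends, cilia and other roles, and the pseudogene Kif4-ps.

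Because the mitotic members moved together, the sequence before their start sites was read from the RefSeq promoter table of build GRCm38.p6. It held windows of 300 bases, 250 before and 50 after the start, for 32 of the 41 members, in 36 windows. The stretches below run from 80 bases before the start to base 30 after it, 110 bases in all. They are every mitotic member whose stretch holds the cell cycle homology region (CHR, TTTGAA or TTCGAA on either strand), a site known to be bound by the MuvB complexes of cell cycle genes. Capitals mark the CHR and the CCAAT box (CCAAT on either strand, known to be bound by NF-Y).
Kif11 (chr19:37376302-37376411, plus strand): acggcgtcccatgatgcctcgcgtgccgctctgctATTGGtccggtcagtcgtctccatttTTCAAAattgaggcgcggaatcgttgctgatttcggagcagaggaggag
Kif15 (chr9:122951001-122951110, plus strand): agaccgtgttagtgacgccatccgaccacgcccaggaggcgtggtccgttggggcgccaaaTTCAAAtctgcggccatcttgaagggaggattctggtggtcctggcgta
Kif18b (chr11:102925095-102925204, minus strand): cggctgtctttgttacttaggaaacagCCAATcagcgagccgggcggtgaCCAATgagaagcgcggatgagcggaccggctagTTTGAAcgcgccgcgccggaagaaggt
Kif20b (chr19:34922278-34922387, plus strand): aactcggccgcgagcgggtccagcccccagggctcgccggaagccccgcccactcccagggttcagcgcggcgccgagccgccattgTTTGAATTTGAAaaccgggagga
Kif22 (chr7:127042391-127042500, minus strand): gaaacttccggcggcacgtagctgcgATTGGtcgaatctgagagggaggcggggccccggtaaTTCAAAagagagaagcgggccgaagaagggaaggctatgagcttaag
Kif23 (chr9:61946770-61946879, minus strand): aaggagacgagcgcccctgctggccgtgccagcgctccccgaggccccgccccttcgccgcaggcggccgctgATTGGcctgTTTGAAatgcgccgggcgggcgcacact
Kif4 (chrX:100625985-100626094, plus strand): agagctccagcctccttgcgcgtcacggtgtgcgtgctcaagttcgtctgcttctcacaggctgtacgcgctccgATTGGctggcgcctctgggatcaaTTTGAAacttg
Kifc1 (chr17:33890604-33890713, minus strand): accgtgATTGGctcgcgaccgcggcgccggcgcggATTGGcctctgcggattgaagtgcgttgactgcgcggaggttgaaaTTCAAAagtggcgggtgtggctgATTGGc

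The 12 mitotic windows include that of Kif2b, which was below background on all arrays. Its window holds a CCAAT box and no CHR. The window of Kif18a, described further on as higher, holds neither a CHR nor a CCAAT box. Kif20a, described further on as higher, had no window. Of the 12 mitotic windows, 10 (83.3%) held a CHR somewhere. The same was true of 1 of 13 transport windows (7.69%) and of 19.2% of all 32851 windows. Within the stretch shown above the count was 8 of 12 (66.7%), against 6.05% of all windows. A CCAAT box lay in 8 of the 12 (66.7%) and in 37.4% of all windows, and 7 of 12 (58.3%) held both motifs, as did 7.52% of all. The E-box CACGTG, the letters that MYC proteins are known to prefer, was in 0 of the 12 mitotic windows. It was in 1 of 13 transport windows (7.69%) and in 7.15% of all windows. With 12 windows and a share that low, a count of 0 does not set the mitotic windows apart. A motif of E2F proteins, also searched for, was in 2 of the 12 mitotic windows (16.7%), those of Kif15 and Kif18a. That motif was in 0 of 13 transport windows and in 1.56% of all windows. The Kif15 match lies in the stretch printed above and is not in capitals there. A match is a description of these letters and is not a measured binding site. The starts used for Kif2c, Kif14, Kif27, Kif3a and Kif26a, among others, lie inside the annotated genes. The 1 transport window with a CHR is also at a start inside its gene, Kif1a, whose other window holds none.

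Of the 11 windows of members of other roles, 3 held both motifs, those of Kif24 and Kif26b, described further on as higher in TH-MYCN+/+ ganglia, and of Kif27, described as lower. The window of Kif12, also described as higher, held neither. The stretches of Kif24 and Kif26b hold both motifs, that of Kif27 holds a CHR only, and Kif3c, a transport motor, is printed as a stretch with neither motif. Which stretches to print was chosen after the matches were seen.
Kif24 (chr4:41464819-41464928, minus strand): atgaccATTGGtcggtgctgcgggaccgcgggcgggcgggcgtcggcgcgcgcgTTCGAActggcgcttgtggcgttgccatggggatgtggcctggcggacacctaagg
Kif26b (chr1:178529045-178529154, plus strand): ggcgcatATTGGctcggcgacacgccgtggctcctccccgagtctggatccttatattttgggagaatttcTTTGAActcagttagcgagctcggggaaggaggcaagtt
Kif3c (chr12:3365052-3365161, plus strand): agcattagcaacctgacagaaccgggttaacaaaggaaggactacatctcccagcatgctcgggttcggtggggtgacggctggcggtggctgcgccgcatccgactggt

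Levels are given below as log2 intensities after quantile normalization, and each difference as TH-MYCN+/+ minus wild type on that log2 scale with its SE. A gene was called when the Benjamini-Hochberg adjusted p of limma over all 21893 genes was under 0.05. By that measure 53.2% of all genes were called, 18.9% higher and 34.3% lower, and the median gene fell by 0.15. Of the 41 Kif genes, 17 were called higher, 15 lower and 9 neither way, so that 78% were called. The 17 include Kif4-ps, which was below background on all arrays and has no measured direction. The groups did not overlap for 26 of the 41, compared with 35.4% of all genes. A probe's brightness depends on its own sequence, so levels of different genes were not compared with each other. Between 56.3% and 63.0% of the probes on an array were above its background. One near-twin pair limits the reading of single probes, since Kifc1 has a close copy, Kifc5b, and a probe may read both.

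**Figure D1:**
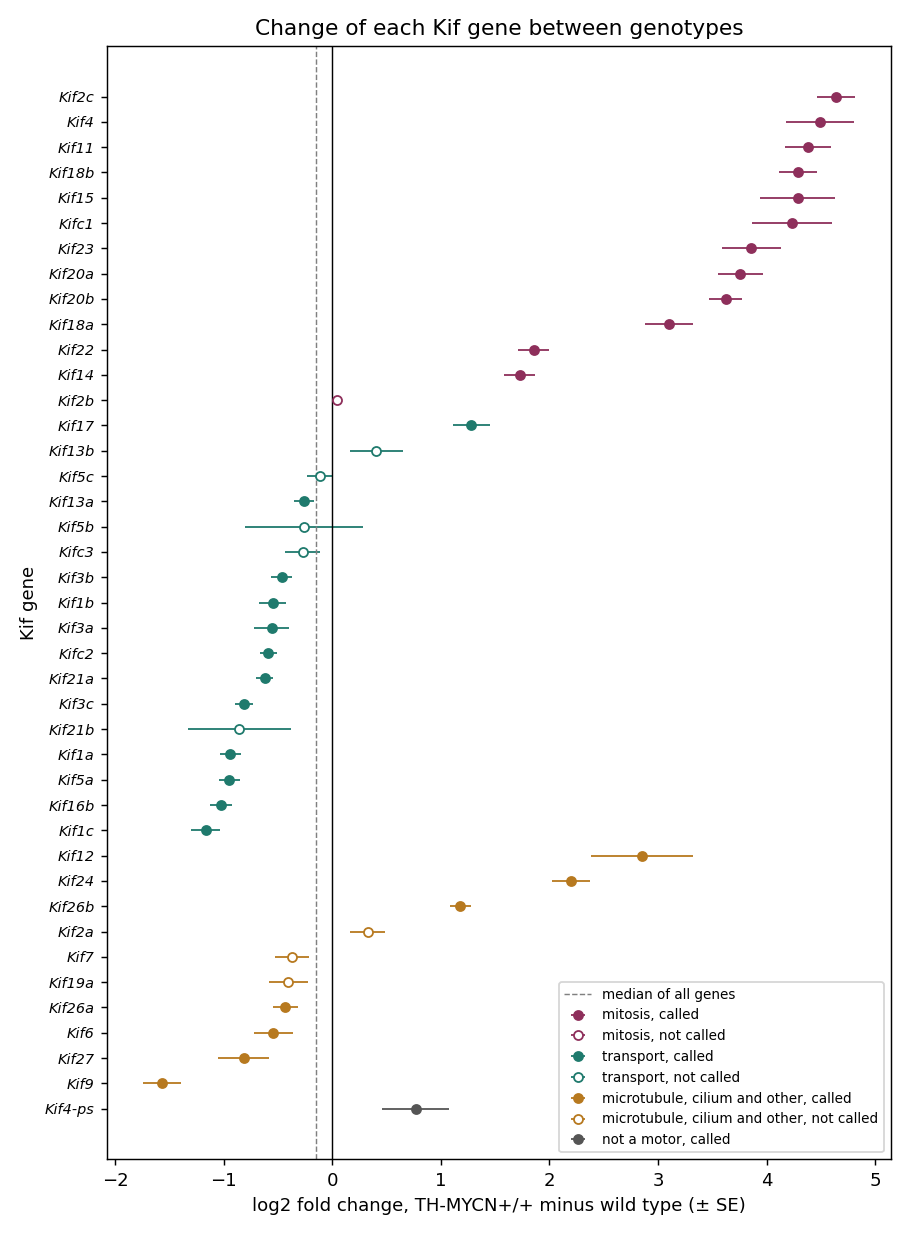
Difference of TH-MYCN+/+ from wild type on the log2 scale (horizontal axis) for each of the 41 Kif genes, grouped by role, with bars for 1 SE and filled points for genes called by limma; the dashed line is the median of all genes. The mitotic genes except Kif2b lie between 1.72 and 4.64, while the transport genes lie between -1.17 and 1.28.

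The mitotic kinesins rose almost as a block. Of the 13, 12 were called higher and 0 lower, beside the background of 18.9% called higher, and their median difference was 3.86 where that of all genes was -0.15. For all 12 the lowest TH-MYCN+/+ array was above the highest wild-type array. The exception was Kif2b, a spindle depolymerase, which was below background on all 13 arrays and so has no measured direction.

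Kif2c at chr4:117159633-117182624, which takes apart microtubules at kinetochores, had the largest difference of any Kif gene and ranked 68 among all genes. Its level was 3.75 at the lowest, 4.07 at the median and 4.58 at the highest in the wild-type ganglia, and 8.19, 8.84 and 9.25 in the TH-MYCN+/+ ganglia. The groups were thus separated by a gap of several log2 units on every array. The difference was 4.64 ± 0.17 (n = 6 and 7), a 24.9-fold higher level with an adjusted p of 6.95e-10 by limma, and a second Kif2c probe gave 4.78.

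Kif11 at chr19:37376382-37421863, the motor that slides antiparallel microtubules apart to make the spindle bipolar, read 3.92, 4.91 and 5.41 (lowest, median and highest) in wild type and 8.87, 9.18 and 9.68 in TH-MYCN+/+. It was 20.9-fold higher (4.39 ± 0.21, limma adjusted p = 5.55e-09). Kif15, which helps to hold the same bipolar spindle, rose by a like amount of 4.29 ± 0.34, although only 6 of 7 wild-type arrays were above background for it. Kifc1, a motor that walks to minus ends and gathers centrosomes into poles, was 18.8-fold higher (4.23 ± 0.37). The wild-type spread of Kifc1 was wide, from 4.25 to 6.65, yet no wild-type array reached the lowest TH-MYCN+/+ array at 9.29.

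Motors that bind or move chromosomes also rose. Kif4, a chromosome arm motor on chrX:100626065-100727271, read 4.35, 4.93 and 6.63 in wild type and 9.16, 9.45 and 10.06 in TH-MYCN+/+, lowest, median and highest. The highest wild-type value, that of replicate 5, stood apart from the other wild-type arrays, which lay between 4.35 and 5.0. Kif4 was 22.5-fold higher with that array (4.49 ± 0.32, limma adjusted p = 1.92e-07), and its difference was 4.76 without it. Kif22, which pushes chromosome arms outward, was already bright in wild type, at 10.14 to 10.64, and rose 3.62-fold to 11.65 to 12.63. Kif18b, which acts on the ends of astral microtubules, was higher by 4.29 ± 0.17, although 1 of the 7 wild-type arrays was at background, while its relative Kif18a, which damps chromosome movements, was 8.58-fold higher.

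The third mitotic set acts at the midzone and in cytokinesis. Kif23, the motor subunit of centralspindlin, read 3.94, 4.96 and 5.80 in wild type and 8.36, 8.80 and 9.36 in TH-MYCN+/+ and was 14.5-fold higher (3.86 ± 0.27, limma adjusted p = 1.97e-07). Kif20a, which brings the chromosomal passenger complex to the midzone, was 13.5-fold higher and Kif20b, a further cytokinesis motor, 12.3-fold. Kif14, which works with citron kinase at the midbody, showed the smallest rise of the 12. It was 3.31-fold higher (1.72 ± 0.14, limma adjusted p = 8.88e-07), and its second probe was above background on only 1 array.

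**Figure D2:**
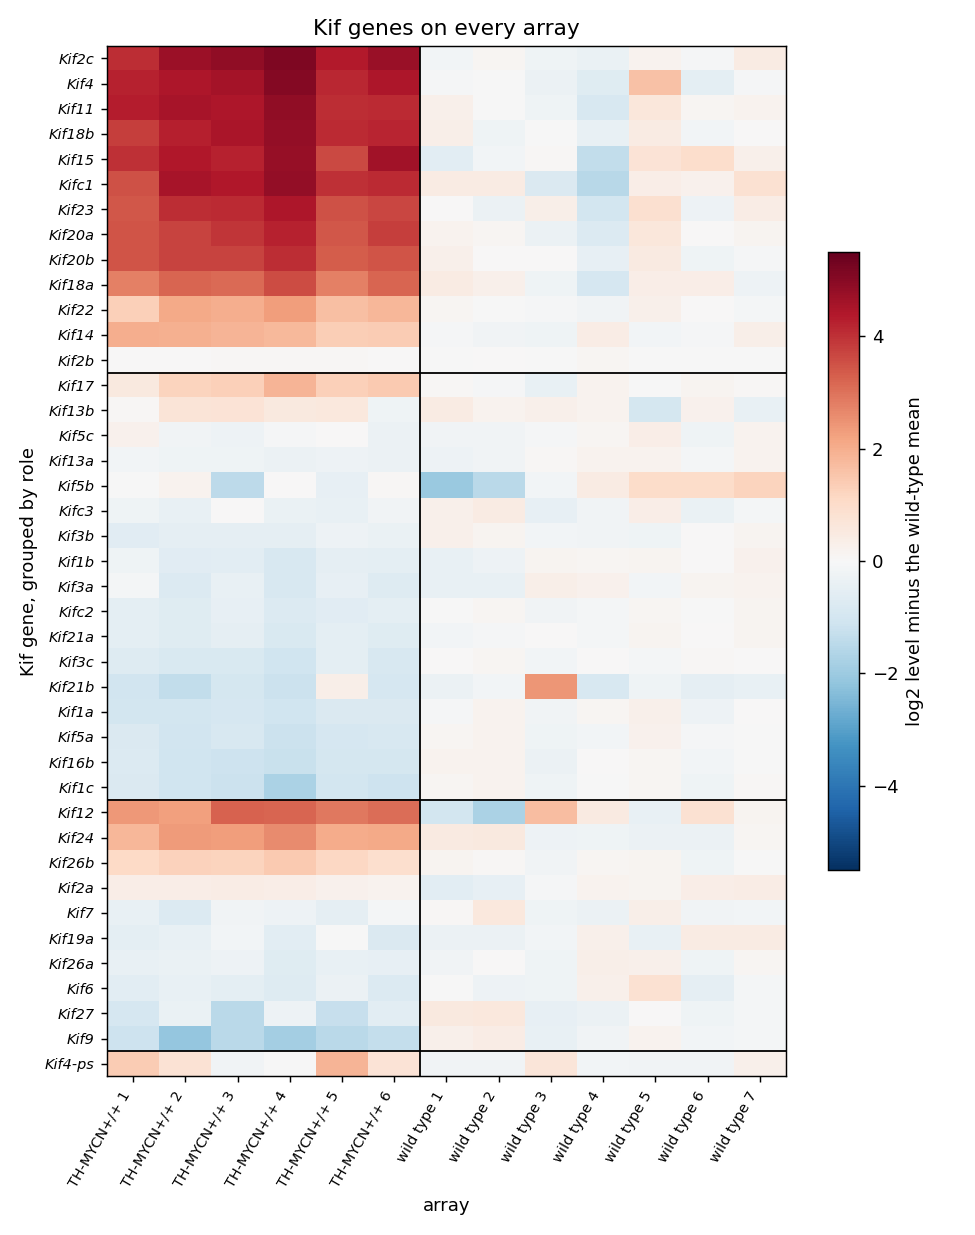
Level of each Kif gene (rows, by role) on each of the 13 arrays (columns), as the difference in log2 from the gene's wild-type mean. The 6 TH-MYCN+/+ columns are higher than every wild-type column in the mitotic rows other than Kif2b, and replicate 4 is the highest of its group in 11 of 12 of them.

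The arrays of each genotype differed in how far the mitotic kinesins were raised, and the members moved together. TH-MYCN+/+ replicate 4 was highest of its group for 11 of the 12, and replicates 1 and 5 were lowest for 6 each. Among the wild-type arrays, replicate 4 was lowest for 11 of the 12 and replicate 5 highest for 7. The mean over the 12 genes ranged from 8.81 to 9.61 in TH-MYCN+/+ and from 4.77 to 5.99 in wild type, so this variation was smaller than the gap between genotypes. TH-MYCN+/+ replicate 4 was also the lowest of its group for 9 of the 17 transport members, and its summed level of sympathetic neuron markers was the lowest of all arrays at 17.84.

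The genes that work with the mitotic kinesins were higher as well. Of 22 measured genes in a list of their partners, 21 were called higher, where 18.9% of all genes were, and 0 lower, with a median difference of 3.73 beside -0.15 for all genes. Birc5, of the chromosomal passenger complex, was 18.2-fold higher, the spindle pole kinase gene Aurka 14.4-fold, the proliferation marker Mki67 22.2-fold and the kinetochore motor gene Cenpe 17.8-fold. The 1 gene of the list not called was Aurkb, which was below background on all arrays. The list also holds the copy of Kifc1, Kifc5b, which had a fitted difference of 4.08, with 4 of 7 wild-type arrays above background. Kifc5b is counted among the 21, although a probe may read both it and Kifc1. Aurkb and Kifc5b were chosen for mention after their values were seen.

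Transport kinesins showed the opposite balance, by much smaller amounts. Of the 17, 11 were called lower, 1 higher and 5 neither way, with a median difference of -0.56. Beside this, 34.3% of all genes were called lower, and 45.3% of the 15704 genes that were above background on 7 or more arrays. The size and the count of the falls depend on how the arrays are scaled, and the level of an array went with genotype. The median deposited value was 4.58 to 5.07 on the TH-MYCN+/+ arrays and 3.94 to 4.50 on the wild-type arrays, without overlap. On the arrays as deposited, with no scaling, 3 of the 17 were called lower, and with arrays scaled to the E1A spike-in controls 0 were. The median gene itself shifted between these scalings from -0.15 to 0.14 and 0.30. Relative to the median gene, the median transport kinesin fell by 0.41 in the main scaling. With dim genes left out, that fall was 0.32. It was 0.36 in 4 other scalings (median, 75th percentile, deposited and spike-in). These 4 differ only by a constant per array, so their equal values follow by construction and count as 1 result. In whole ganglia, fewer cells of a type and less RNA per cell cannot be told apart. Summed sympathetic neuron markers were at 17.84 to 18.62 in TH-MYCN+/+ and 19.38 to 19.76 in wild type, with 11 of 14 called lower, 1 higher and 0 of 14 below background throughout, and their part in the transport falls was not tested. Some other resident cell types also had most of their markers called lower. These were fibroblasts (7 of 8, median -1.56), Schwann and satellite glia (6 of 8, -1.28) and endothelium (8 of 8, -0.91). Macrophage markers did not share this, with 3 of 8 called lower and 2 higher (median 0.21). Of 4 chromaffin cell markers, 2 were called lower and 2 higher.

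**Figure D3:**
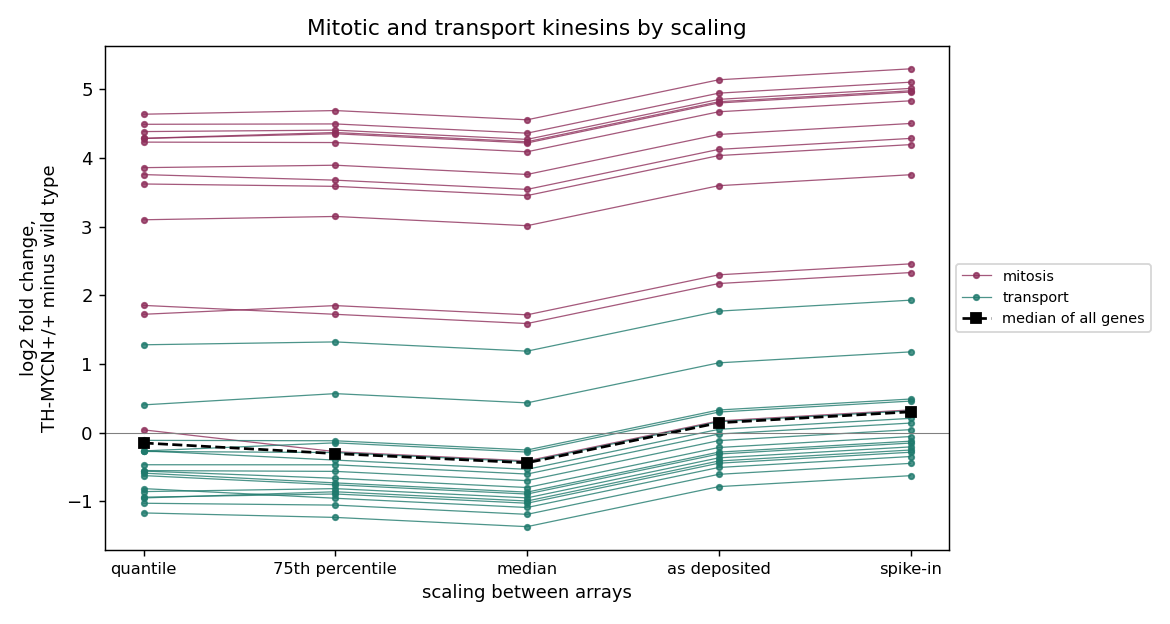
Difference of TH-MYCN+/+ from wild type on the log2 scale (vertical axis) for each mitotic and transport kinesin (points joined by lines) and for the median of all genes (squares) under 5 ways of scaling the arrays (horizontal axis). The median of the transport kinesins moves from -0.80 to -0.06 with the scaling, the median of all genes moves with it, and the median of the mitotic kinesins stays between 3.76 and 4.50.

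Kinesin-1, the classical motor of fast axonal transport, is built on the heavy chains Kif5a, Kif5b or Kif5c. The neuronal chain Kif5a at chr10:127225695-127266348 read 15.55, 15.75 and 16.04 (lowest, median and highest) in wild type and 14.59, 14.88 and 15.00 in TH-MYCN+/+, with no overlap. It was 1.93-fold lower (-0.95 ± 0.09, limma adjusted p = 3.52e-06). Kif5c at chr2:49619286-49774778, the other chain found mainly in neurons, read 14.40, 14.59 and 15.00 in wild type and 14.30, 14.50 and 14.85 in TH-MYCN+/+, so its groups overlapped almost completely (-0.11 ± 0.12, limma adjusted p = 0.472). The within-array difference of Kif5a and Kif5c was lower by 0.84 ± 0.14 in TH-MYCN+/+ without overlap, at the smallest p that an exact permutation over the 1716 splits allows, 0.000583 (adjusted over 20 pairs, 0.0015). A dim second Kif5a probe was not called (0.14), and with the mean of both probes the change of the difference was -0.29 with an adjusted permutation p of 0.0651. Kif5b, the chain that most tissues use, was read by a dim probe whose wild-type arrays spread from 2.77 to 6.05, and was not called (-0.27 ± 0.54).

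Kinesin-3 motors carry synaptic and dense-core vesicle precursors and endosomes. Kif1a at chr1:93015455-93102039, the carrier of synaptic vesicle precursors, read 15.14, 15.43 and 15.70 in wild type and 14.31, 14.45 and 14.63 in TH-MYCN+/+, a 1.92-fold fall without overlap (-0.94 ± 0.10, limma adjusted p = 4.32e-06). Kif1c at chr11:70700396-70731970, a carrier of dense-core and Golgi vesicles, showed the largest fall of the transport set. It read 9.70, 10.03 and 10.17 in wild type and 8.22, 8.83 and 9.15 in TH-MYCN+/+, a 2.25-fold fall (-1.17 ± 0.13, limma adjusted p = 9.64e-06), and its other probes also fell. Kif1b, which moves mitochondria and vesicle precursors, fell by 0.55 ± 0.13 with overlapping groups, and its dimmer probe was not called (-0.07). Within arrays Kif1b was raised relative to Kif1c by 0.62 ± 0.14, and no array of one genotype reached into the other (exact permutation, adjusted p = 0.0026).

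Of the endosomal kinesin-3 motors, Kif16b, which moves early endosomes, was 2.04-fold lower, from 8.70 to 9.23 in wild type to 7.79 to 8.26 in TH-MYCN+/+. Kif13a, which sorts recycling endosomes, was lower by 0.26 ± 0.09 with overlapping groups (limma adjusted p = 0.0245). The value for Kif13a turned to 0.05 on the deposited values and to 0.21 with spike-in scaling. Kif13b was not called (0.41 ± 0.24) and lay near background. The mitotic member of the subfamily, Kif14, rose, and the difference of Kif16b and Kif14 changed by -2.75 ± 0.18 (exact permutation, adjusted p = 0.0015).

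Kinesin-2 motors run in axons and in cilia, as pairs of Kif3a with Kif3b or Kif3c, or as Kif17 alone. Kif3c at chr12:3365132-3406494, the partner subunit enriched in neurons, had wild-type values in a narrow range, 12.92, 13.09 and 13.14, against 11.97, 12.22 and 12.50 in TH-MYCN+/+. It was 1.76-fold lower without overlap (-0.81 ± 0.08, limma adjusted p = 3.38e-06). The common subunit Kif3a fell by 0.56 ± 0.16 with overlapping groups and Kif3b by 0.47 ± 0.10 without overlap. Within arrays Kif3c fell relative to Kif3b by 0.35 (exact permutation, adjusted p = 0.0093), but not beyond the threshold with the mean of all probes (adjusted p = 0.30) or without 4 arrays that carry markers of other tissue (adjusted p = 0.0635).

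Kif17 at chr4:138262251-138301973, known from brain dendrites as a carrier of glutamate receptor vesicles, was the 1 transport kinesin called higher. Its level was 6.07, 6.52 and 6.68 in wild type and 7.01, 7.78 and 8.32 in TH-MYCN+/+, without overlap. The rise was 2.43-fold (1.28 ± 0.17, limma adjusted p = 3.23e-05), and TH-MYCN+/+ replicate 4 was again the highest. Of 2 further Kif17 probes, one was below background on all arrays and the other was not called (0.40), so the rise rests on 1 probe.

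**Figure D4:**
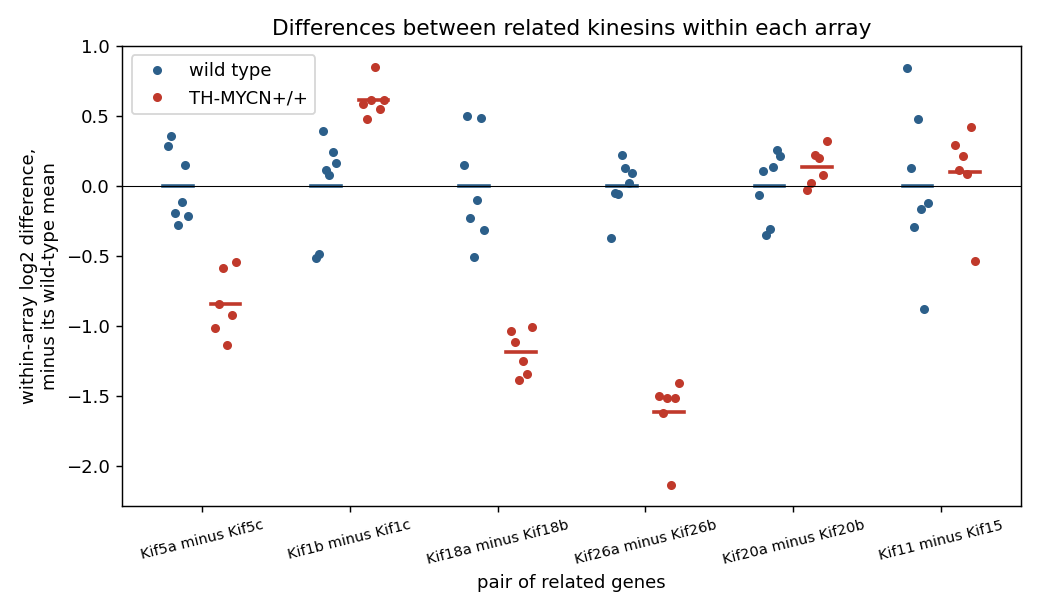
Within-array difference in log2 level between paired members of a kinesin family less the wild-type mean of that difference (vertical axis), 1 point per array, for 6 pairs in TH-MYCN+/+ and wild type, with bars at the group means. Kif5a minus Kif5c and Kif18a minus Kif18b are lower on every TH-MYCN+/+ array than on any wild-type array, whereas Kif20a minus Kif20b overlaps.

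The remaining transport members are the kinesin-4 motors Kif21a and Kif21b, which slow the growth of microtubule ends, and the minus-end motors Kifc2 and Kifc3. Kif21a fell by 0.62 ± 0.08 (n = 6 and 7) and the neuronal Kifc2 by 0.59 ± 0.07, both without overlap between genotypes. Kifc3, a motor of cell junctions, was not called (-0.27 ± 0.16).

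The call of Kif21b turned on a pair of arrays. Its wild-type values ran from 6.86 to 7.59 on all arrays but replicate 3, which read 10.18, and its TH-MYCN+/+ values from 6.38 to 6.82 except for replicate 5 at 8.04. Over all arrays the difference of -0.86 ± 0.47 was not called (limma adjusted p = 0.150). The same arrays had the highest summed level of 7 B and T cell markers, 13.26 on wild-type replicate 3 and 10.46 on TH-MYCN+/+ replicate 5, where the others lay at 8.18 to 9.45, with 0 of these markers below background throughout. Without these 2 arrays, a choice made after the data were seen, Kif21b was lower by 0.68 with a limma adjusted p of 0.00132. The part of B and T cells in the Kif21b level was not tested.

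**Figure D5:**
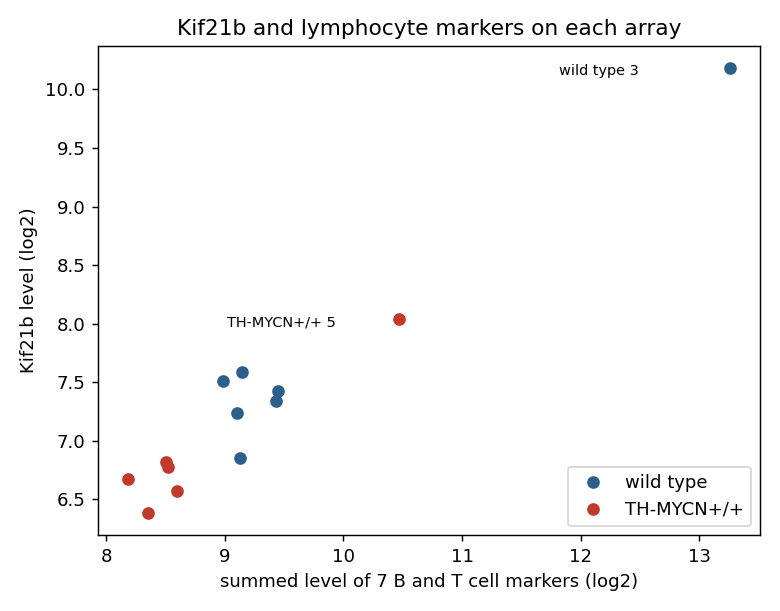
Level of Kif21b (vertical axis, log2 intensity) against the summed level of the B and T cell markers (horizontal axis, log2) on each of the 13 arrays, by genotype. Wild-type replicate 3 and TH-MYCN+/+ replicate 5 stand apart from the other arrays on both axes.

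Members of other roles moved in both directions, 3 higher, 4 lower and 3 neither way of 10, with a median of -0.39. These shares lie near the 18.9% and 34.3% of all genes called higher and lower. Kif24 at chr4:41389964-41464919, a kinesin-13 that trims the microtubules of the mother centriole and holds back cilium formation, read 4.24, 4.34 and 5.10 in wild type and 6.39, 6.74 and 7.18 in TH-MYCN+/+. It was 4.60-fold higher without overlap (2.20 ± 0.18, limma adjusted p = 6.76e-07). Kif26b at chr1:178529125-178932857, a kinesin-11 without motor activity that is needed for kidney development, rose 2.27-fold from 10.01 to 10.42 up to 11.21 to 11.72 (1.18 ± 0.10), and its second probe was not called (0.23). These are the genes whose start regions were printed above with both motifs. Kif12 was higher by 2.85 ± 0.47 with only 4 of 7 wild-type arrays above background, which makes it at least 5.07-fold higher when dim arrays are set to their lowest measured signal.

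Kif9 at chr9:110476738-110525174, a motor of motile cilia and flagella, showed the largest fall of any Kif gene. Its level was 6.22, 6.50 and 7.04 in wild type and 4.50, 5.14 and 5.47 in TH-MYCN+/+, a 2.98-fold fall without overlap (-1.57 ± 0.17, limma adjusted p = 7.51e-06). All 4 other Kif9 probes were called lower as well, 1 of them below background on all arrays, and Kif9 was the 1 Kif gene still called lower with spike-in scaling (-0.88, limma adjusted p = 0.0185). Its relative Kif6 was lower by 0.54 with overlapping groups, on 1 of its 3 probes, and was at 0.04 with the mean of probes. Kif27, a homologue of the Hedgehog regulator Kif7, was above background on 0 of 6 TH-MYCN+/+ and 6 of 7 wild-type arrays. In the main scaling it was at least 1.24-fold lower. That bound does not hold under every alternative run, where the Kif27 difference was as small as -0.04 and was not always called.

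Kif26a, known in mice to restrain GDNF and Ret signalling in enteric neurons, had probes that went opposite ways. The brighter fell by 0.43 ± 0.11 and the dimmer rose by 0.44, both called, so its direction is not settled. Kif2a, a depolymerase that prunes axon branches, likewise had its brightest probe not called at 0.33 and another called lower at -0.20. Kif7, a motor of the cilium tip in Hedgehog signalling, and Kif19a, which limits cilium length, were not called at -0.37 and -0.40. Kif4-ps was below background on all arrays and has no measured direction, although its adjusted p by limma was 0.0498.

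Pairs of relatives were compared within arrays, where a shift of a whole array by a constant cancels. The quantile normalization of the values does not cancel in this way. Of 20 pairs, 11 changed with an adjusted p under 0.05 by exact permutation. The count was 13 on the deposited values and 9 without the 4 arrays that carry markers of other tissue. Among the 11 was Kif1a and Kif1b, with a change of -0.39 (adjusted permutation p = 0.0381) that fell short of the threshold in 10 of 17 alternatives. The share over other pairs of genes was not computed, while 53.2% of all single genes were called by limma. The count is therefore not read as a trait of kinesins. The changes of mitotic members exceeded those of relatives outside mitosis by 4.31 for Kif2c and Kif2a, 4.86 for Kif4 and Kif7 and 4.82 for Kifc1 and Kifc2. Pairs of this kind restate the single-gene differences given above. Among the mitotic pairs, Kif18b rose more than Kif18a by 1.19 ± 0.16 with no overlap (adjusted permutation p = 0.0015). Kif20a and Kif20b changed by amounts 0.14 ± 0.11 apart, and Kif11 and Kif15 by amounts 0.10 ± 0.25 apart, neither beyond the spread of the arrays (adjusted permutation p of 0.343 and 0.779). The changes of Kif26a and Kif26b were 1.61 apart, but 0.70 apart with the mean of their probes.

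Transcripts of the proteins that link transport motors to cargo were also counted. Of 29 measured adaptors and light chains, 19 were called lower and 4 higher, with a median of -0.43, beside 34.3% of all genes and 45.3% of the brighter genes called lower. Kifap3, which joins the Kif3 pair to cargo, was 1.85-fold lower, the mitochondrial adaptor Trak1 1.70-fold, the kinesin-1 activator relative Map7d1 1.55-fold and the kinesin-1 scaffold Mapk8ip1 1.48-fold. The exceptions were Grip1, which steers kinesin-1 to dendrites, 4.10-fold higher, with Hap1 1.84-fold, the Kif1 linker Madd 1.67-fold and the liprin Ppfia1 1.34-fold. On the deposited values 2 of the 29 were called lower, and with spike-in scaling 0.

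Cytoplasmic dynein, the motor of the return path to the cell body, gave a like count of 16 lower and 2 higher of 23 with dynactin and regulators, at a median of -0.45, beside the same 34.3% and 45.3% called lower. The neuronal intermediate chain Dync1i1 was 2.52-fold lower, the regulator Pafah1b1 1.73-fold, the dynactin subunit Actr1a 1.70-fold and the light chain Dynlrb1 1.48-fold. The genes called higher were the adaptor Hook1 at 2.15-fold and Nde1, a dynein regulator that also acts in mitosis of neural progenitors, at 1.75-fold. With the deposited values or spike-in scaling 3 were called lower.

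Transcripts of proteins that bind the microtubule tracks went both ways. Of 17 microtubule-associated proteins of neurons, 9 were called lower and 5 higher, with a median of -0.65. The share called lower is near the 45.3% of the brighter genes. Dcx, which marks migrating young neurons and guides Kif1a, was 5.37-fold higher, the tubulin-binding Stmn1 2.37-fold, the minus-end protein Camsap1 1.79-fold and the Dcx relative Dclk1 1.68-fold. In the other direction Tppp3 was 3.36-fold lower, Tppp 2.00-fold, Stmn3 1.96-fold and the stabiliser Map6 1.76-fold. With the deposited values 3 of the 17 were called lower, and 2 with spike-in scaling.

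Other tissue was present on single arrays. Skeletal muscle markers summed to 16.26 on TH-MYCN+/+ replicate 6 and at most 12.27 elsewhere, and adrenal cortex markers to 11.53 on wild-type replicate 1 and at most 9.03 elsewhere, with Cyp11b2 the 1 gene of that list below background throughout. Without these and the arrays with B and T cell markers, 12 mitotic members were called higher and 11 transport members lower, the counts of the full set, with Kif21b now called and Kif13a not. The defining markers Th and Dbh were bright on all arrays and lower in TH-MYCN+/+, by 1.76 and 1.35.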

How the data were processed

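The authors deposited 1 value per probe and array, read here as log2 intensity. The base was inferred from the range, and no source used here names the scanner software or background correction. The table held 55821 probes, of which 140 were controls and 30626 carried 1 gene symbol from the platform annotation. Because array medians ran from 3.94 to 5.07, those of TH-MYCN+/+ all above those of wild type, the 55681 array probes were quantile normalized. The probe with the highest mean stood for its gene, giving 21893 genes.

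Genotypes were compared with limma 3.58.1 under R 4.3.3, two-sided, in a linear model with empirical Bayes moderation and Benjamini-Hochberg adjustment over all genes. Pairs were compared by exact permutation over 1716 splits, two-sided, adjusted over 20 pairs. Background was the 95th percentile of 96 ERCC probes on an array, assuming that no ERCC RNA was added. Spike-in scaling used the mean of 7 of 10 E1A probes, assuming equal amounts on all arrays. A bound for a dim gene sets each dim array to the lowest signal above background or its own signal, whichever is higher. The precision is limited by the number of arrays. The fit was checked on simulated data.

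All members are accounted for, and from each partner list up to 4 called genes per direction with the smallest p are named. The symbol rule uses no values, but the kinesin family, like the lists and pairs, was picked for study with earlier results of these data known. Replicate numbers were not taken as pairs, since same-numbered arrays of both genotypes deviated from their group means with correlations of -0.13 to 0.05. Alternatives comprised other scalings, the replicate block, leaving out dim genes, the mean of probes, a trended robust variance, array weights and leaving out arrays.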

Additional observations from a re-analysis of the deposited data

Results flagged for a closer look

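Of 82 checks for an array far from the others of its genotype, 5 (6.1%) were positive, and chance gives about 1 in 20. Kif4 read 6.63 on wild-type replicate 5 and between 4.35 and 5.0 on the other wild-type arrays. Kif17 read 6.07 on wild-type replicate 3, below the other wild-type arrays at 6.42 to 6.68, and stayed higher in TH-MYCN+/+ without it (1.21, limma adjusted p = 7.55e-05). Kif21b read 10.18 on wild-type replicate 3 and 8.04 on TH-MYCN+/+ replicate 5, the arrays with the most B and T cell marker signal. Its difference was -0.45 without the former alone and -1.09 without the latter alone, with limma adjusted p of 0.151 and 0.0731. Kif2b read 0.99 on wild-type replicate 4, which is below background.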

How the results depend on the processing

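The count of 12 mitotic members called higher stood under each of the scalings, models and array subsets run. The other counts depended mostly on scaling. With spike-in scaling 7254 genes were called in all, and on the deposited values and with spike-in scaling 4 and 1 Kif genes were called lower, 2 and 2 transport members higher and 3 and 0 lower. The partner lists had 2 and 0 adaptors, 3 and 3 dynein genes and 3 and 2 microtubule-associated proteins called lower there. Of called genes 35.5% were higher in the main scaling, 22.0% with median centring, 31.0% with centring on the 75th percentile, 66.8% as deposited and 78.2% with spike-in scaling. Median centring gave 2 adaptors higher and 1 mitotic member lower, the unmeasured Kif2b at -0.41. Among members called in the main scaling, signs turned with spike-in scaling for Kif1b (0.045), Kif3b (0.14), Kif13a (0.21), Kif6 (0.20) and Kif26a (0.10). They turned on the deposited values for Kif13a (0.0495) and Kif6 (0.044), and with the mean of probes for Kif26a (0.0042) and Kif6 (0.044). Of members not called, Kif19a turned to 0.13 as deposited and 0.29 with spike-in scaling. Kif5b, Kif5c, Kif7 and Kifc3 also turned under some alternative, reaching 0.46, 0.49, 0.29 and 0.32. Shifting every value of an array by construction moves all genes together, and why the array levels differ was not tested. Leaving out each array gave 10942 to 11788 genes called, 16 to 17 Kif genes higher and 13 to 16 lower, 10 to 11 transport members lower and 10 to 12 pairs. With the replicate block, 10537 genes and 9 transport members lower were called, and 0 pairs. Exact sign flips over the 6 shared replicate numbers allow no p below 0.03125, and the smallest adjusted p seen was 0.0625. Dim probes limit Kif2b, Kif4-ps, Kif5b, Kif12, Kif13b and Kif27.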
